A study of Homo sapiens with 10 samples.

Results

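The comparison is of the 2 A549 libraries whose labels name an ABCA3 knockout, 2 of the 10 libraries of the series. One is labelled KO and untreated, the other KO and transduced with a lentivirus that carries ABCA3 joined to green fluorescent protein (GFP). They are named here by their measured ABCA3 level, because ABCA3 and the EGFP row both ran against the labels: the library labelled KO untreated is the ABCA3-high library, and the library labelled KO transduced is the ABCA3-low library. Those 2 rows chose the pair, so their values are a description and support nothing. The other 8 libraries came from 4 further A549 lines, labelled wild type (WT), L101P, E292V and E690K after the ABCA3 variant they carry, each untreated and transduced. All the lines are A549, a human lung adenocarcinoma line with features of alveolar type 2 cells, grown in medium with serum. Transduced cells received a VSVG-coated vector overnight at a multiplicity of infection of 20. RNA came from lifted cells and libraries from a total-RNA kit. Each line and treatment has 1 library, so nothing measures the spread between cultures, and the number of clones or cultures behind a library was not given in the sources used here. Of 33551 rows, 9458 genes averaged 10 CPM or more across the 10 libraries and were examined. CPM, the usual depth-scaled count, gives a gene's counts relative to the total of its library.

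ABCA3 is a transporter of the ATP-binding cassette family that moves phospholipids into lamellar bodies, the lysosome-related organelles in which alveolar type 2 cells store surfactant. Without working ABCA3, lamellar bodies do not form properly and surfactant is deficient, which causes severe lung disease of newborns and interstitial lung disease of children. Variants are grouped by whether the protein fails to leave the endoplasmic reticulum (type 1) or reaches its organelle but transports poorly (type 2). The vector adds a working copy with a GFP tag, so the ABCA3 row can hold reads of the cell's own gene and of the vector, which cannot be told apart in these counts. The labels do not say what the knockout removed. A disrupted gene can still be transcribed, so the ABCA3 row does not by itself show whether functional ABCA3 was present.

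ABCA3 had 45023 counts in the ABCA3-high library and 2092 in the ABCA3-low library. As CPM this was 601 (95% Wilson interval 593 to 608) against 25.8 (24.2 to 27.4). The log2 ratio of ABCA3-high over ABCA3-low was 4.54, with a 95% interval of 4.45 to 4.63. Every such interval covers counting error only, and reads without molecular identifiers are not independent molecules. The untreated libraries of the other lines held ABCA3 at 362 CPM (WT), 1156 (L101P), 992 (E292V) and 890 (E690K). Their transduced libraries had it at 610 CPM (WT), 896 (L101P), 1035 (E292V) and 968 (E690K). The ABCA3-high library therefore lay inside the range of the other 8, at 1.66 times the untreated WT level, and the ABCA3-low library lay below all 8, at 0.0712 times that level.

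EGFP, the GFP reporter's row, was at 2842 counts in the ABCA3-high library, or 37.9 CPM (36.0 to 39.9). It was at 4 counts in the ABCA3-low library, or 0.0492 CPM (0.0135 to 0.180). The log2 ratio was 9.59, with an interval of 7.73 to 12.64. Untreated libraries of the other lines had EGFP at 70.9 CPM (WT), 1.01 (L101P), 20.7 (E292V) and 16.3 (E690K). Transduced ones had it at 153 CPM (WT), 35.9 (L101P), 66.8 (E292V) and 17.99 (E690K). EGFP was thus present in all 4 of the other untreated libraries, and it was higher in the transduced library of each of those lines, the opposite order to that of the pair as labelled. A further reporter row, TDTOMATO, had 0 counts in both libraries of the pair, with 95% Wilson upper limits of 0.102 CPM (ABCA3-high) and 0.0946 CPM (ABCA3-low), and 236 to 756 counts in the other 8. The 2 libraries labelled KO were alike in that row and differed from the rest of the series.

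**Figure D1:**
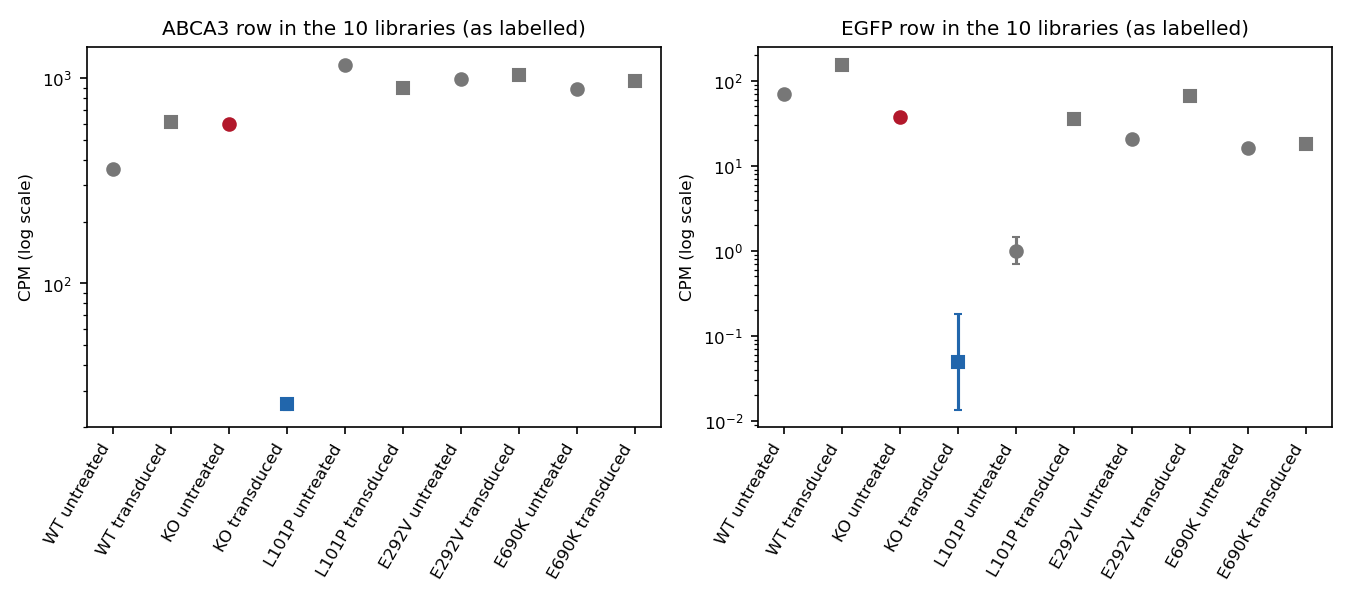
CPM of ABCA3 (left) and EGFP (right) in each of the 10 libraries on log scales, circles for libraries labelled untreated and squares for those labelled transduced; bars are 95% Wilson intervals of counting error. The library labelled KO untreated (red) has 601 CPM of ABCA3 and 37.9 CPM of EGFP, and the library labelled KO transduced (blue) has 25.8 and 0.0492.

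GENCODE 29 (GRCh38) places ABCA3 at 2275881 to 2340746 of chromosome 16, minus strand. The 16 examined genes that lie within 250 kb of it had a median log2 ratio of 0.07 between the libraries, from -0.18 (PDPK1, a kinase that activates AKT) to 0.52 (RAB26, a small GTPase of secretory vesicles). MLST8 followed RAB26 at 0.35. RNPS1, the nearest examined gene (7.5 kb away), was at 0.06. CCNF, a cyclin and the nearest on the other side (88.6 kb away), was at -0.03. A difference of the size seen in ABCA3 was not shared by its neighbours. Over whole chromosomes the medians ran from -0.04 (chromosome 13, 145 genes) to 0.07 (chromosome 19, 610 genes). The 250 bases before the start of ABCA3 in RefSeq (GRCh38.p14) are shown as the regulatory region of the gene that named the pair, 5′ to 3′ on the gene's strand, chr16:2340729-2340978, minus strand.
ABCA3: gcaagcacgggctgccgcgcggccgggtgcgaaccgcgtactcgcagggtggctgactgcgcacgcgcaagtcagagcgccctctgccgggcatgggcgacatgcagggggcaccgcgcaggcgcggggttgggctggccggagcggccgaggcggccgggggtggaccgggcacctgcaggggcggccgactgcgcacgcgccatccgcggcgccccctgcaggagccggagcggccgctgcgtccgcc
No measurement in this series bears on activity at that sequence.

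The ABCA3-high library held 74973562 counts and the ABCA3-low library 81218415, within the 59430095 to 96811421 of all 10. Mitochondrially encoded genes took 5.50% (ABCA3-high) and 5.71% (ABCA3-low) of the counts, against 4.27% to 5.52% in the other 8. The epithelial markers KRT8, KRT18, KRT19, EPCAM, CDH1 and CLDN4 summed to 7484 CPM (ABCA3-high) and 8601 CPM (ABCA3-low), in a range of 5437 to 11475 over the series. Leukocyte markers summed to 5.12 and 4.63 CPM with 2 of 5 at 0 in each library, and endothelial markers to 0.320 and 0.591 CPM with 2 and 1 of 4 at 0. Fibroblast markers summed to 24.3 and 23.6 CPM, with 2 of 5 at 0 in each, and COL1A1, which encodes a collagen chain, made up 21.4 CPM of the first sum. The surfactant protein genes, which define alveolar type 2 cells, were close to absent: SFTPA1 had 0 counts in both, SFTPA2 had 2 (ABCA3-high) and 0, SFTPB 5 and 6, SFTPC 14 and 26, and SFTPD 26 and 32.

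Apart from ABCA3 and EGFP, the 2 libraries were close to each other. Of the 9458 genes, 17 (0.18%) were higher in the ABCA3-high library by more than 1.5-fold and 28 (0.296%) were lower, 45 in all (0.476%). At a smaller limit of 0.32 on the log2 scale, used below for gene lists, the numbers were 184 (1.95%) higher and 187 (1.98%) lower. At 2-fold 4 genes were higher (0.0423%), namely EGFP, ABCA3, APOE and OLFML3, and 4 were lower (0.0423%), namely MUC5AC, CEACAM5, PXDN and TFF1. APOE, OLFML3 and PXDN average under 10 CPM in the pair itself and were examined through their levels in other lines. The same holds for AC020916.1, PURPL, SCEL, EFNB2 and SESN2, named below. With the pair's own mean as the filter ABCA3 and EGFP alone remain of those 4 higher genes. At 1.5-fold that filter gave 13 higher genes, all among the 17, and 26 lower genes, 24 of them among the 28. The median log2 ratio over all genes examined was 0.00. Leaving out ABCA3 and EGFP, its standard deviation across genes was 0.15, against 0.18 between the WT libraries, 0.24 between the L101P libraries, 0.19 between the E292V libraries and 0.11 between the E690K libraries. The counts beyond 1.5-fold in those pairs were 63 (0.666%, WT), 220 (2.33%, L101P), 145 (1.53%, E292V) and 3 (0.0317%, E690K), so the pair lay between E690K and the other lines. Counting error alone left 2226 genes with an interval above 0 and 2079 with one below 0. Without a second culture on either side, whether a ratio exceeds the spread between cultures cannot be given.

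**Figure D2:**
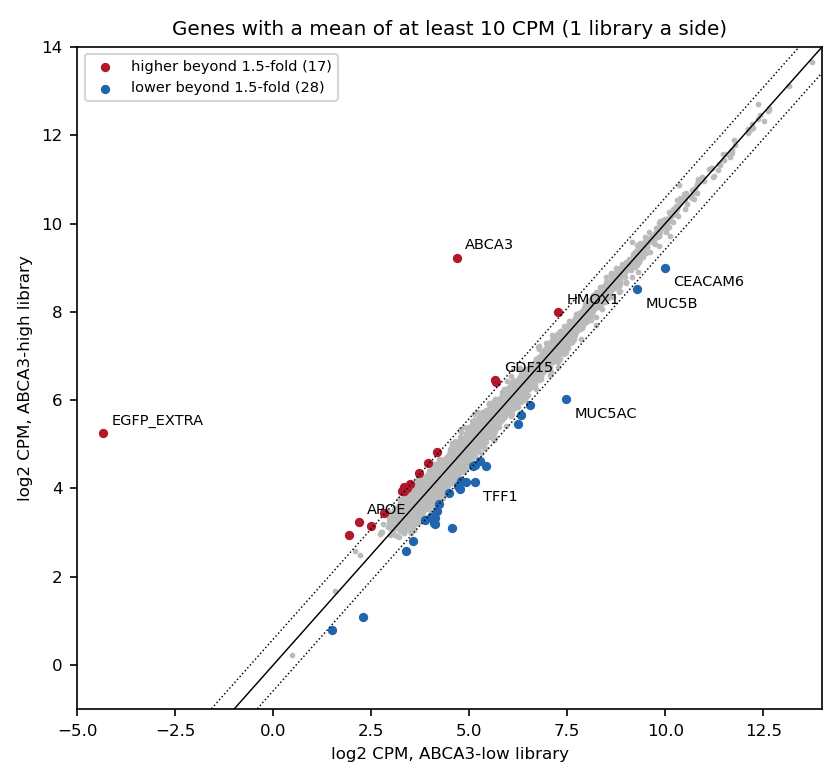
Log2 CPM of each of the 9458 examined genes in the ABCA3-low library (horizontal) and in the ABCA3-high library (vertical); dotted lines mark 1.5-fold, red marks the 17 genes beyond it on the higher side and blue the 28 on the lower side. ABCA3 and EGFP stand far from the diagonal. The other 43 coloured genes lie closer to it, with log2 ratios from -1.46 (MUC5AC) to 1.06 (APOE).

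Among the genes with the largest ratios towards the ABCA3-low library were mucins and CEACAM surface proteins. MUC5AC, the gel-forming mucin of airway goblet cells (chromosome 11, 1157953 to 1201138), was at 64.7 CPM in the ABCA3-high and 178 CPM in the ABCA3-low library, 2.75-fold lower in the first (log2 ratio -1.46, interval -1.53 to -1.39). In the other lines it was at 14.2 CPM untreated and 21.8 transduced (WT), 77.4 and 447 (L101P), 17.6 and 10.4 (E292V), and 103 and 91.4 (E690K). Both libraries of the pair lay inside the range of the other 8, and the transduced library was the higher one in WT and L101P and the lower one in E292V and E690K. CEACAM6, a cell-surface adhesion protein of the carcinoembryonic antigen family (chromosome 19, 41750977 to 41772208), was at 513 CPM (ABCA3-high) and 1015 CPM (ABCA3-low), 1.98-fold lower in the ABCA3-high library. Its other values were 76.3 CPM untreated and 91.9 transduced (WT), 230 and 963 (L101P), 38.3 and 24.2 (E292V), and 689 and 623 (E690K). The ABCA3-low library had the highest CEACAM6 level of the 10.

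CEACAM5, the carcinoembryonic antigen itself, was at 8.66 CPM (ABCA3-high) and 23.7 CPM (ABCA3-low), a log2 ratio of -1.45. TFF1, a trefoil peptide secreted with mucins, was at 17.6 and 35.5 CPM, a log2 ratio of -1.01. MUC5B, the other main gel-forming mucin of the airway, was at 364 and 621 CPM, a log2 ratio of -0.77. The list of mucin, trefoil and goblet genes also counts CEACAM5 and CEACAM6. It and the lists below were chosen with earlier results of these data known. Their shares beside all genes are therefore descriptions and support nothing. Of the 18 genes of this list, 11 were examined and 7 were under 10 CPM. All 11 were lower in the ABCA3-high library, 8 of them by more than 0.32 and none higher, against the 1.98% of all genes that were lower by that much. Their median log2 ratio was -0.48, beside 0.00 for all genes examined, and it was -0.47 after a linear fit on GC content and length was taken out. In bulk RNA fewer cells of a kind and less RNA per cell cannot be told apart. SPDEF and FOXA3, transcription factors of goblet cells, were at -0.07 and -0.08, and so differed far less than MUC5AC, TFF1 and MUC5B. The genes of this list vary widely between these libraries: the same 11 had a median transduced over untreated log2 ratio of -0.13 (WT), 1.43 (L101P), -0.66 (E292V) and -0.15 (E690K).

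The other genes lower by the largest ratios were of several kinds. PXDN, a peroxidase that crosslinks collagen IV, was at 2.13 CPM (ABCA3-high) and 4.92 CPM (ABCA3-low), a log2 ratio of -1.21. Outside the pair it was at 10.9 CPM untreated and 31.9 transduced (WT), 3.80 and 7.75 (L101P), 44.3 and 78.9 (E292V), and 5.59 and 6.12 (E690K). PXDN was higher in the transduced library in all 4 of those lines, and the ABCA3-high library had the lowest level of the 10. EFEMP1, a fibulin of elastic matrix, was at 9.32 and 17.3 CPM (-0.89), and its transduced library was likewise the higher one in all 4 other lines. COL4A6, a basement membrane collagen chain, was at 44.2 and 75.7 CPM (-0.78), and CST1, a secreted cysteine protease inhibitor, at 9.10 and 17.3 CPM (-0.93). The rest of the 15 lowest ratios were C1orf116 (-0.92), SCEL, a protein of the cornified envelope (-0.81), PDE1C, a cyclic nucleotide phosphodiesterase (-0.80), GDA, a guanine deaminase (-0.77), TRIM29 (-0.77) and EFNB2, an ephrin ligand (-0.76). The 13 further genes lower by more than 1.5-fold ran from FLRT2 at -0.72 to KRT15 at -0.59, with TNC, tenascin C, at -0.67; FLRT2 and KRT15 are named after their values were seen.

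Among the genes with the largest ratios towards the ABCA3-high library were GDF15, HMOX1 and 2 apolipoprotein genes. GDF15, a secreted stress cytokine of the TGF-beta family (chromosome 19, 18374731 to 18389176), was at 87.7 CPM (ABCA3-high) and 50.8 CPM (ABCA3-low), a log2 ratio of 0.79 with an interval of 0.71 to 0.87. In the other lines it was at 125 CPM untreated and 83.2 transduced (WT), 54.2 and 39.9 (L101P), 78.8 and 67.0 (E292V), and 40.9 and 38.9 (E690K). The untreated library was the higher one in all 4. HMOX1, heme oxygenase 1, which degrades heme (chromosome 22, 35380361 to 35394214), was at 256 and 154 CPM, a log2 ratio of 0.73 with an interval of 0.69 to 0.78. Its other values were 398 CPM untreated and 388 transduced (WT), 238 and 156 (L101P), 276 and 348 (E292V), and 198 and 213 (E690K). The ABCA3-low library had the lowest HMOX1 level of the 10, close to that of the transduced L101P library.

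APOE, a lipoprotein component (chromosome 19, 44905754 to 44909393), was at 9.42 CPM (ABCA3-high) and 4.52 CPM (ABCA3-low), a log2 ratio of 1.06 with an interval of 0.80 to 1.32. APOC1, another apolipoprotein and its neighbour on that chromosome, was at 15.4 and 9.68 CPM, a log2 ratio of 0.67. In the other lines APOE was at 13.7 CPM untreated and 10.5 transduced (WT), 4.07 and 4.07 (L101P), 25.7 and 28.0 (E292V), and 7.68 and 6.12 (E690K), so both libraries of the pair lay inside that range. SPP1, osteopontin, a secreted phosphoprotein, was at 85.5 and 51.0 CPM (0.74), and the ABCA3-high library had the highest level of the 10. SRXN1, which repairs oxidised peroxiredoxins, was at 16.0 and 10.6 CPM (0.60), with the ABCA3-high library above and the ABCA3-low library below all 8 others. Between these came OLFML3, a secreted olfactomedin-domain protein (1.01), SUSD2, a surface sushi-domain protein (0.70), the antisense transcript AC020916.1 (0.66), PAPPA, a protease of insulin-like growth factor binding proteins (0.65), CEMIP, a hyaluronan-degrading protein (0.63), ADM, adrenomedullin (0.61), and the noncoding PURPL (0.61). Whether counting used strand was not given in the sources used here, so reads of AC020916.1 and of genes on the other strand cannot be told apart.

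On the higher side the genes just inside 1.5-fold were HSD17B7, PDGFRL and SRXN1, each at 0.60, and those just outside were JAG2, SESN2 and RSPO3, each at 0.57. On the lower side KRT15, SOX9 and P2RY2 were just inside at -0.59, and LGR6 (-0.58), KRT19 (-0.55) and PTHLH (-0.54) just outside. The values run on across the threshold with no gap.

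Antioxidant genes controlled by NRF2, the transcription factor released when KEAP1 is lost or oxidised, are strongly expressed in A549 as a background trait of the line. All 24 listed were examined. 5 were higher in the ABCA3-high library by more than 0.32 (1.95% of all genes were) and none lower, with a median log2 ratio of 0.06. The 5 were HMOX1 and SRXN1, described above, with OSGIN1, an oxidative stress growth inhibitor (93.9 and 67.4 CPM, 0.48), and both ferritin subunits, the iron-storage proteins. FTH1, the heavy chain, was at 1884 and 1302 CPM (0.53), and FTL, the light chain, was at 6705 and 5251 CPM (0.35). The remaining 19 lay within 0.32 of 0, among them the glutathione synthesis gene GCLC (0.19) and the quinone reductase NQO1 (0.03), named after their values were seen. The higher genes were thus those of heme and iron handling with SRXN1 and OSGIN1, and the list as a whole stood near 0. The letters TGACNNNGC are the core of the antioxidant response element. They were found on either strand of the 250 upstream bases in 4 of 16 listed genes with a RefSeq promoter. The share was 12.3% of 7621 examined genes and 11.03% of 27305 promoters. The 4 were GCLM (0.07), TXNRD1 (0.03), PGD (0.13) and ME1 (0.08), and none of the 5 higher genes was among them. HMOX1 had no promoter entry in the set used.

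Of 20 listed secreted proteins of liver type, some of which A549 cells also make, 8 were examined and 12 were under 10 CPM. Their median log2 ratio was 0.38, 4 of the 8 were higher by more than 0.32 against 1.95% of all genes, and none was lower by that much. APOE, 1 of the 4, averages under 10 CPM in the pair itself. The others were the 3 chains of fibrinogen, the clotting protein, which lie side by side on chromosome 4, so the share rests on few loci. FGA was at 150 and 110 CPM (0.45), FGB at 147 and 108 CPM (0.44), and FGG at 104 and 76.4 CPM (0.45). The list's median transduced over untreated log2 ratio was -0.42 (WT), 0.17 (L101P), -0.43 (E292V) and -0.26 (E690K). FGB was at 217 CPM untreated and 157 transduced (WT), 97.5 and 88.9 (L101P), 250 and 188 (E292V), and 67.1 and 55.2 (E690K). The untreated library was the higher one in each of those lines.

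Cholesterol synthesis is switched on by SREBP2 when sterols run low. Of 24 listed genes 23 were examined, with a median of 0.18. A ratio above 0 was seen in 20 of the 23, where 4882 of all 9458 genes had one, and 21 lay within 0.32 of 0. The 2 higher by more than 0.32, as 1.95% of all genes were, were HSD17B7 (17.1 and 11.3 CPM, 0.60) and LSS, lanosterol synthase (53.5 and 41.3 CPM, 0.37). DHCR7, the last reductase of the pathway, was at 0.28 and FDPS, farnesyl diphosphate synthase, at 0.25. Among the 3 genes below 0 were HMGCS1 (-0.13) and IDI1 (-0.11), both early in the pathway and named after their values were seen. With GC content and length taken out the median was 0.15. The sterol regulatory element core TCACNCCAC was found on either strand in 1 of 17 listed genes with a promoter, against 0.827% of the examined genes. That gene was SREBF2, which encodes SREBP2 and was at 175 and 155 CPM (0.17); its 250 bases before the start are shown with the match in capitals, 5′ to 3′ on the plus strand, RefSeq GRCh38.p14, chr22:41832855-41833104.
SREBF2: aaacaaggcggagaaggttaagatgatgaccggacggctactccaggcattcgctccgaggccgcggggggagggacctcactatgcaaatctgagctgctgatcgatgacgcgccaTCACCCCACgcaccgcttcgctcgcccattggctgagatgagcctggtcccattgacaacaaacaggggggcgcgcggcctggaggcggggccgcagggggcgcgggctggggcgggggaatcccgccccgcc
A match is a run of letters and not a measured binding site.

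The lysosome and lamellar body list is built around the compartment where ABCA3 resides, and not every member is a component of it. Of 30 listed, 28 were examined, 1 was under 10 CPM and 1 symbol had no row. Their median log2 ratio was 0.12 (0.08 with GC content and length taken out), 23 were above 0 (4882 of all 9458 genes were) and 1 was higher by more than 0.32, a share near the 1.95% of all genes. That gene was SQSTM1, the autophagy receptor p62, at 768 and 568 CPM (0.44), with the ABCA3-low library below the other 8, whose range was 593 to 876. HEXA, a subunit of hexosaminidase (0.29), ATP6V0D1, a subunit of the proton pump (0.29), and CTSA, a carboxypeptidase (0.25), followed. ABCA7 and ABCA2, the other examined lipid transporters of the ABCA family, were at -0.03 and 0.02, and the remaining 9 of the 11 listed were under 10 CPM. The 5 examined alveolar type 2 genes of 20 listed had a median of 0.02, with none beyond 0.32.

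Of 24 listed matrix and epithelial-mesenchymal genes 17 were examined, with a median of -0.16. Of these 17, 15 were below 0, where 4576 of all 9458 genes were, and 13 lay within 0.32 of 0. The 4 lower by more than 0.32, as 1.98% of all genes were, included TNC (16.6 and 26.4 CPM, -0.67), COL5A1, a fibrillar collagen chain (95.2 and 133 CPM, -0.49) and CDH2, N-cadherin (28.9 and 37.5 CPM, -0.37). ZEB1, a transcription factor of mesenchymal cells named after its value was seen, was at 0.21. Of the 17 examined immediate early genes, 1 was lower by more than 0.32, where 1.98% of all genes were. It was JUNB, a subunit of AP-1 (-0.34), and the list's median was -0.02.

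Stress and growth lists differed in single genes. Over all genes examined, 1.95% were higher in the ABCA3-high library by more than 0.32. The amino acid response, run by ATF4, had 15 of 20 genes examined, a median of 0.12 and 3 higher by more than 0.32. They were SESN2, a leucine sensor (0.57), PCK2, a mitochondrial carboxykinase (0.34), and CEBPB, a transcription factor (0.33). SESN2 averages under 10 CPM in the pair itself. The p53 response had 22 of 24 examined, a median of 0.07 and 2 higher, GDF15 and BBC3, the cell-death gene PUMA (0.38). Of the hypoxia and glycolysis genes 21 of 28 were examined, with a median of 0.04 and 2 higher, ADM and the glucose transporter SLC2A3 (0.55). NF-kB and inflammatory genes had 10 of 24 examined, a median of -0.02 and 1 higher, PTGS2, cyclooxygenase 2 (0.42). In 7 lists no examined member lay beyond 0.32 besides the alveolar and ABCA family lists: S phase and mitosis (29 of 30 examined, median -0.03), fatty acid and phospholipid synthesis (22 of 24, 0.04), the unfolded protein response (22 of 24, 0.01), the interferon response (11 of 35, 0.06), mitochondrially encoded genes (13 of 13, -0.04), metallothioneins and their regulators (2 of 11, -0.08) and replication-dependent histones (4 of 33, 0.05).

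**Figure D3:**
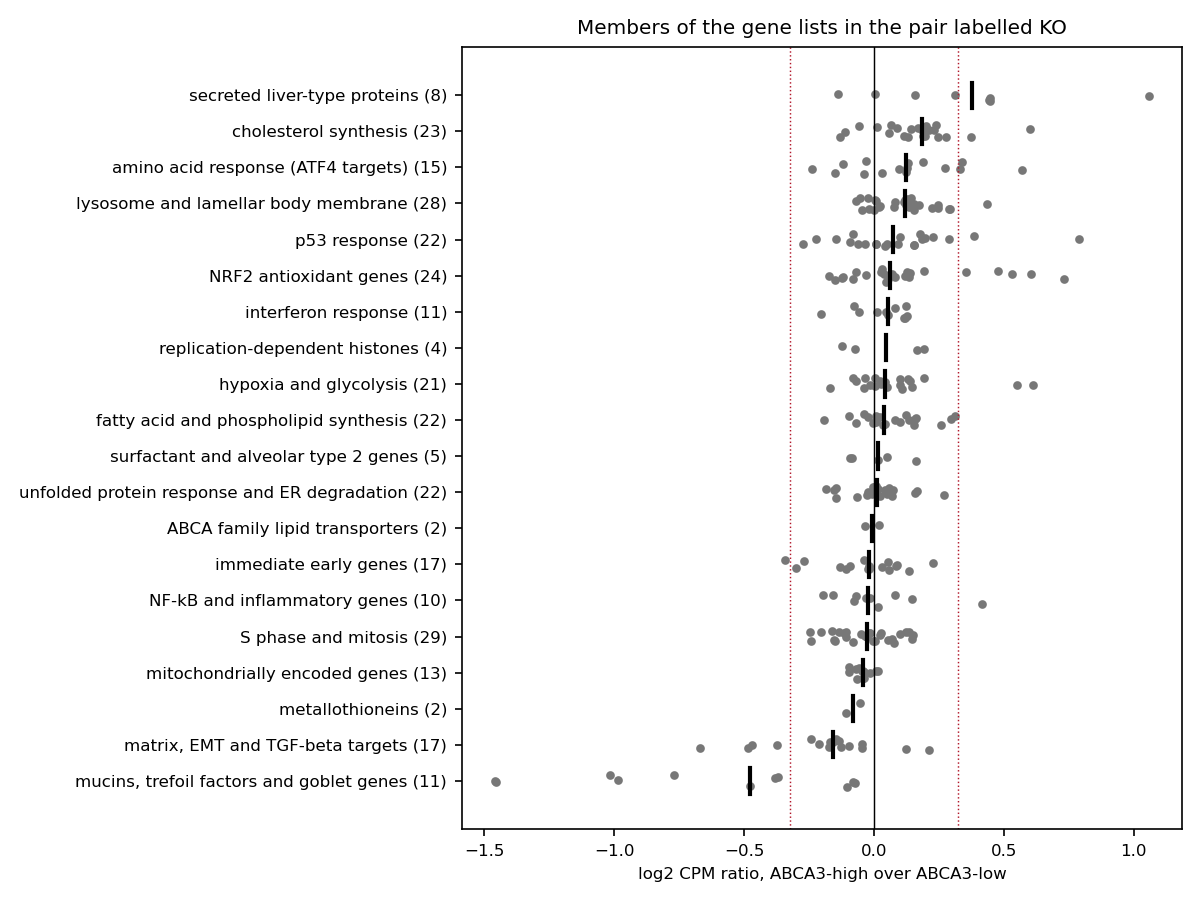
Log2 ratio of ABCA3-high over ABCA3-low for the examined members of each gene list (points, their number in brackets) with the list's median (black bar); dotted lines mark 0.32 on either side of 0. The mucin, trefoil and goblet list, with CEACAM5 and CEACAM6 (median -0.48), and matrix genes (-0.16) lie to the left. Liver-type (0.38) and cholesterol (0.18) genes lie to the right, and most lists lie around 0.

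Below 10 CPM, among the 3507 genes that still averaged 1 CPM or more, 3 were higher (0.0855%) and 2 lower (0.0570%) with a counting interval wholly beyond 2-fold. DYSF, a membrane repair protein of muscle, had 80 counts (ABCA3-high) and 14 (ABCA3-low), a log2 ratio of 2.63. RAB39B, a small GTPase, had 122 and 24 counts (2.46), and APBB1IP, an adaptor of integrin activation, had 32 and 0. All 3 higher genes average under 1 CPM in the pair itself and entered through their levels in other lines. The noncoding LINC01559 had 42 and 178 counts (-1.97) and NPY4R, a neuropeptide receptor, 78 and 251 (-1.57). In CPM, DYSF was at 1.07 (ABCA3-high) and 0.172 (ABCA3-low), and the ABCA3-low library lay below the other 8, which ran from 0.673 to 7.53 across lines and treatments. APBB1IP ran from 0 to 19.7 CPM in the other 8.

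The genes that differed between the 2 libraries were then followed in the other 4 lines, whose libraries the pair does not share. Of the 15 genes other than ABCA3 and EGFP that were higher in the ABCA3-high library by more than 1.5-fold, the transduced library had less RNA of 11 in WT, 13 in L101P, 8 in E292V and 8 in E690K. Of the 28 lower genes the transduced library had more RNA of 22 in WT, 26 in L101P, 9 in E292V and 13 in E690K. In L101P 20 of those 28 were higher by more than 1.5-fold, where 1.56% of all genes were, and in E292V 9 of the 28 were lower by that much, where 0.603% were. For most of the 43 genes, then, the ABCA3-high library stood to the ABCA3-low library as untreated stood to transduced in WT and L101P, while E292V gave the opposite order for MUC5AC, MUC5B, TFF1 and CEACAM6. The medians over all examined genes were 0.00 (WT), -0.03 (L101P), -0.01 (E292V) and -0.02 (E690K).

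Over 9456 genes, leaving out ABCA3 and EGFP, the log2 ratio of the pair correlated with transduced over untreated at r = -0.34 in WT (Spearman's rho -0.35), -0.27 in L101P (-0.12), -0.12 in E292V (-0.17) and 0.05 in E690K (0.07). Taken as labelled, transduced over untreated, the signs of all of these turn, so that the pair as labelled correlated positively with WT, L101P and E292V, while its EGFP went the other way in each of them. For scale, WT and E292V correlated at 0.40 with each other, WT and L101P at -0.23, and WT and E690K at 0.14. These are correlations across genes of single libraries, and genes are not independent replicates. The genes share depth and base composition effects: the ratio of the pair correlated at 0.26 with GC content and at -0.20 with log2 length over 9410 genes, and that of WT at -0.16 and 0.45. With both taken out of each ratio the values were -0.28 (WT), -0.38 (L101P), -0.07 (E292V) and -0.02 (E690K), and what part base composition has in them was not tested beyond that fit.

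**Figure D4:**
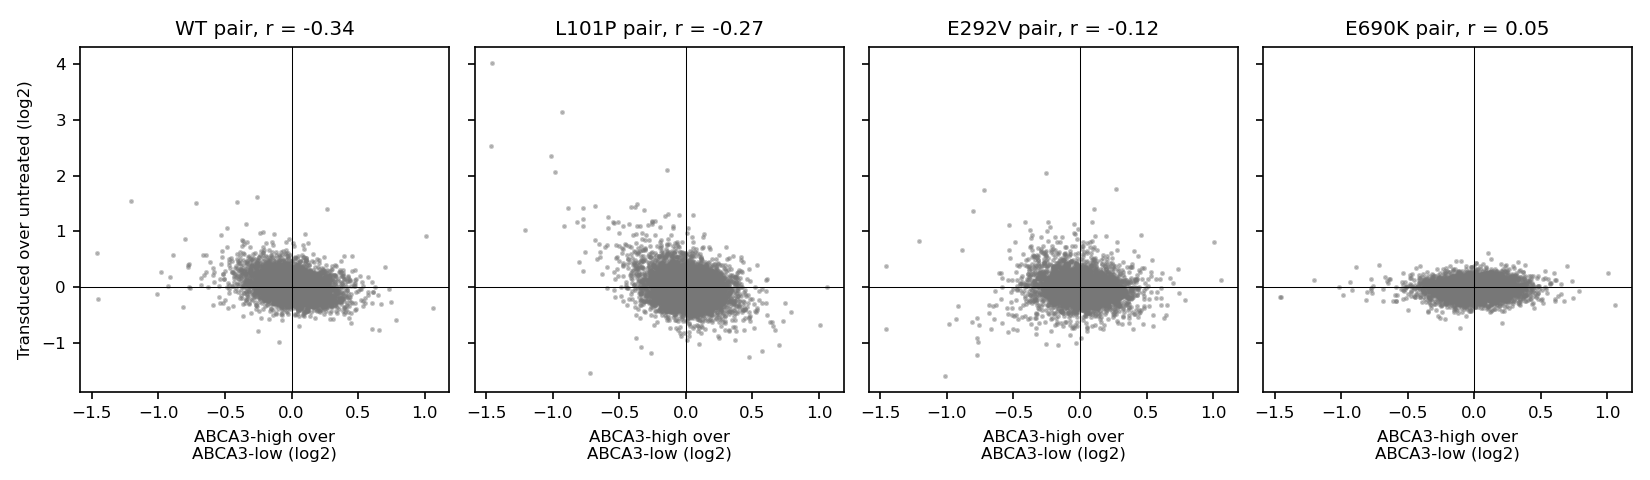
Log2 ratio of ABCA3-high over ABCA3-low (horizontal) against log2 transduced over untreated in each other line (vertical) for 9456 genes without ABCA3 and EGFP; each point is a gene. The clouds tilt downward in WT (r = -0.34) and L101P (-0.27), less in E292V (-0.12), and are flat in E690K (0.05).

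The design allows 1 test, of transduced against untreated over the 8 libraries of the other 4 lines, with the line as a block and the pair left out. In edgeR's quasi-likelihood test 0 of 17746 genes (0%) passed a Benjamini-Hochberg adjusted p of 0.05, and 919 had an unadjusted p under 0.05; DESeq2 called 36, EFEMP1, FGA and FGB among them. The 15 highest ratios of the pair include ABCA3 and EGFP. For 11 of the other 13 the fitted vector change was below 0, with adjusted p from 0.684 to 0.999. For 14 of the 15 lowest ratios it was above 0, with adjusted p from 0.391 to 0.9997. How many of all tested genes lay on each side of 0 is not given here, so both counts are descriptions. The lines did not share these directions. Over all 28 lower genes the median transduced over untreated log2 ratio was 0.27 (WT), 0.94 (L101P), -0.34 (E292V) and -0.03 (E690K). TFF1, for example, was at -0.13 (WT), 2.35 (L101P), -1.60 (E292V) and 0.01 (E690K). The fit gave PXDN a log2 change of 0.93 (SE 0.17, adjusted p = 0.391) and EFEMP1 0.77 (SE 0.15, adjusted p = 0.391), both higher in 4 of 4 transduced libraries. GDF15 was at -0.31 (SE 0.08, adjusted p = 0.733), lower in 4 of 4. FGA was at -0.30 (SE 0.06, adjusted p = 0.548) and FGB at -0.30 (SE 0.07, adjusted p = 0.603), each lower in 4 of 4. MUC5AC was at 0.57 with an SE of 0.41 (adjusted p = 0.999) and HMOX1 at -0.02 with an SE of 0.12 (adjusted p = 0.999); the 4 lines went opposite ways for both. Without the L101P pair the same fit called 223 genes, and EFEMP1, PXDN, FGA and FGB were among them.

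**Figure D5:**
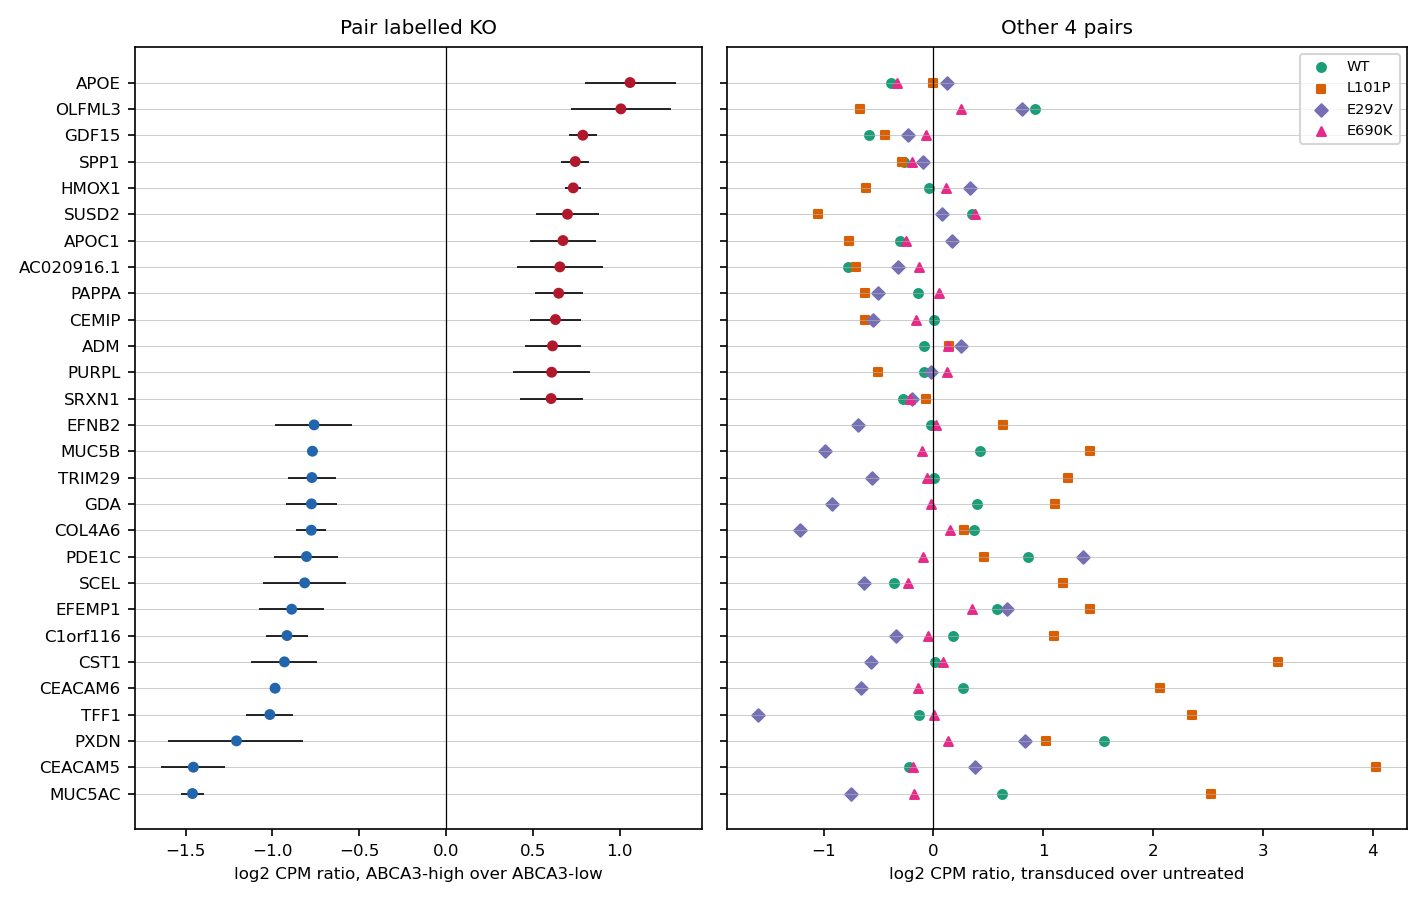
Left, log2 ratio of ABCA3-high over ABCA3-low with 95% counting intervals for the named genes beyond 1.5-fold other than ABCA3 and EGFP (red higher, blue lower); right, log2 transduced over untreated of the same genes in the other 4 lines. On the left APOE (1.06) and MUC5AC (-1.46) mark the ends; on the right the L101P points of CEACAM5, CST1 and MUC5AC lie farthest to the right and the E690K points stay near 0.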

How the data were processed

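RNA-seq libraries of 5 A549 lines, untreated and transduced, were compared as gene counts; groups came from the labels. The authors deposited whole-number counts per gene in 1 table; per the submitters' processing notes, GRCh38, featureCounts, Subread, edgeR and limma were used, with no role or order stated. Aligner, annotation, strand and pair counting were not given in the sources used here. Of values from 1 to 10, 81.4% were even, against 51.5% above 1000, so intervals took 2 counts as 1 read pair. CPM used library totals of 59430095 to 96811421 counts; ratios carry exact Clopper-Pearson 95% intervals. Positions came from GENCODE 29 for 33047 of 33551 rows. The pair has 1 library a side and no test. The other 8 libraries were fitted with edgeR 4.0.16 (TMM, filterByExpr, line as block, R 4.3.3), with DESeq2 1.42.0 as an alternative; both libraries of a block come from 1 line. The scripts were tested on simulated data. Named were ABCA3, EGFP, the 15 highest and 15 lowest ratios, up to 4 members of each of the lists with the largest ratios, up to 5 genes a side from 1 to 10 CPM beyond 2-fold, and the surfactant genes; 77 of these 107 had a RefSeq promoter. Some members of the lists are counted but not reported here by name. The members and lists were chosen with earlier results of these data known. Alternatives were other scalings, filters, a prior of 5 counts, GC and length, and, for the fit, leaving out each line.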

Additional observations from a re-analysis of the deposited data

Results flagged for a closer look

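Each named gene's transduced over untreated log2 ratio, as labelled, was compared over the 5 lines in 97 sets of 5 values. In 5 sets 1 line stood apart from the others (gap over range above 0.71), and chance flags about 1 in 20. ABCA3 and EGFP chose the pair labelled KO, so their values restate that choice and are no finding: ABCA3 was at -4.54 there, with a gap of 0.788 of the range. EGFP in that pair was at -9.59 as labelled, where the other lines lay between 0.14 and 5.15, the opposite direction; the difference was not tested. The other sets were CTSH in L101P (0.74), SLC30A1 in L101P (-0.40), MT.CO1 in WT (0.39) and HIST1H2BK in WT (-0.59). In the pair labelled KO, as ABCA3-high over ABCA3-low, those 4 genes were at -0.09, -0.06, -0.10 and -0.07.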

How the results depend on the processing

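With TMM or DESeq2 scaling, the pair's own mean as the filter, a prior of 5 counts, or GC content and length taken out, the counts of genes beyond 1.5-fold stayed within 1.5 times the main ones. With genes from 1 CPM they were 275 higher and 200 lower of 12965, with 50 CPM 4 and 5 of 4462, and at 2-fold 4 and 4. The median of the mitochondrially encoded list moved from -0.0423 to -0.0551 under TMM, -0.0584 under DESeq2 scaling and -0.0591 under the GC and length fit, and the other 19 lists moved less than their limit. The correlation with WT was -0.18 with genes from 1 CPM, -0.49 at 50 CPM and -0.28 with GC and length taken out; that with L101P was -0.38 with GC and length taken out; that with E292V was -0.0486 at 1 CPM and -0.19 at 50 CPM; that with E690K was 0.000985 at 1 CPM and -0.0241, reversed, with GC and length taken out. The test of the other 4 lines called 0 genes, 36 with DESeq2 and 119 with no filter on low counts; leaving out 1 line gave 0 to 223, the highest without L101P. Without the replicate block, the line that pairs its 2 libraries, it called 0. Of the named genes 5 passed with DESeq2, 14 without L101P and 16 with no filter. The cause was not tested. The GC and length fit and the 1 and 50 CPM correlations were chosen after seeing the data. With 1 library a side, depth sets the counting intervals but says nothing of the spread between cultures.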
